A study of Mus musculus with 8 samples.

Results

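The lower part of glycolysis, from aldolase to pyruvate kinase, was followed through 10 genes chosen by name: *Aldoa*, *Aldoc*, *Tpi1*, *Gapdh*, *Pgk1*, *Pgam1*, *Eno1*, *Eno2*, *Eno3* and *Pkm*. They are 10 of the 55385 genes in the count table, and all 10 were among the 17445 genes that passed the filter on low counts. No measured value entered the choice, but earlier results of these data were known when it was made.

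Lower glycolysis begins when aldolase splits a six-carbon sugar bisphosphate into a pair of three-carbon phosphates, which triose phosphate isomerase interconverts. Glyceraldehyde-3-phosphate dehydrogenase, phosphoglycerate kinase, phosphoglycerate mutase, enolase and pyruvate kinase then act in turn, and the 2 kinases of this part of the pathway make ATP. Several steps have isoenzymes from separate genes with tissue preferences: *Aldoa* and *Eno1* are the widely expressed forms, *Aldoc* and *Eno2* are known from brain, and *Eno3* is known from muscle. Pluripotent stem cells are known for a high rate of glycolysis, and many genes of the pathway are known targets of the hypoxia-inducible factor HIF-1.

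The study asked how mouse embryonic stem cells respond to a partial loss of *Eftud2*, a GTPase of the U5 small nuclear ribonucleoprotein of the spliceosome. R1 mESCs, a male mouse line grown without feeder cells in N2B27 medium with LIF and kinase inhibitors, were infected with lentivirus on each of 2 days and selected for 3 days. Of the 8 libraries, 3 were made with shRNA1 and 3 with shRNA2, which are independent hairpins against *Eftud2*, and 2 with nt-shRNA, a non-targeting hairpin that serves as the control. Every group therefore carried a lentiviral hairpin, no uninfected cells were among these libraries, and each library came from a population of infected cells rather than a clone. The labels call the libraries of a group biological replicates without giving the origin of the cultures, so the p-values measure the spread between these libraries. With bulk RNA, fewer cells that express a gene and less RNA per cell cannot be told apart.

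Poly(A)-selected RNA gave between 19569525 and 29871048 counts per library, and 3 counts corresponded to between 0.1004 and 0.1533 CPM, the unit of counts scaled to library size that is used throughout. *Eftud2* was at 262 and 256 CPM with nt-shRNA, at 232, 229 and 225 CPM with shRNA1, and at 198, 202 and 235 CPM with shRNA2. Its log2 fold change in edgeR was -0.18 (SE 0.0678, adjusted p = 0.0514) with shRNA1 and -0.29 (SE 0.0678, adjusted p = 0.00122) with shRNA2. Every knockdown library was below both controls, but the call passed with shRNA2 only. The paper reports a stronger knockdown by qPCR with each hairpin, and less EFTUD2 protein on western blots with either. The reason for this difference from the counts was not tested. All 10 markers of embryonic stem cells were detected, with a summed level of 7304 to 7448 CPM with nt-shRNA, 7412 to 7668 CPM with shRNA1 and 7434 to 7908 CPM with shRNA2. Single markers moved in both directions within this sum: 4 were called higher and 2 lower with shRNA1, and 6 higher and 3 lower with shRNA2, beside 13.8% higher and 17.1% lower of all genes with shRNA1 and 27.2% and 28.7% with shRNA2. With shRNA2 the pluripotency factors *Klf4* (log2 fold change 1.32) and *Nanog* (0.76) rose, while *Dppa5a* (-0.96), the growth factor gene *Fgf4* (-0.69) and *Pou5f1* (-0.29) fell. Their part in the changes of the glycolytic genes was not tested. Within groups, any pair of libraries differed by a chi-square of 3.12 to 12.02 per gene, so none repeated another within sampling noise.

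Transcripts of lower glycolysis were lower with both hairpins, and more so with shRNA2. With shRNA1, 9 of the 10 genes fell (adjusted p under 0.05, edgeR) and *Eno3* did not pass, where 17.1% of all genes tested were called lower and 13.8% higher. With shRNA2, all 10 fell, where 28.7% of all genes were called lower and 27.2% higher. No member was called higher in either comparison. With library size alone as the scale, 1713 genes were called lower and 4101 higher with shRNA1 in place of 2981 and 2407, and the member counts were again 9 and 10. The median log2 fold change of the 10 genes was -0.63 with shRNA1 (SD 0.161 of the medians of the 3 knockdown libraries against the control mean) and -0.99 with shRNA2 (SD 0.0452), beside -0.01 and 0.00 for all genes tested. These 2 comparisons share the nt-shRNA libraries.

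The hairpins were also compared directly, in the same fit over all 8 libraries, so the controls entered the estimate of the spread. In shRNA2 against shRNA1, 8 of the 10 genes were lower, where 18.7% of all genes were called lower and 16.9% higher. The median of the 10 was -0.39, beside -0.00 for all genes, and it ran from -0.45 to -0.38 when each library was left out in turn. *Pgam1* and *Eno2* did not pass.

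Measured library by library, both nt-shRNA libraries lay above every shRNA1 library for all 10 genes, an arrangement seen in 30.2% of all genes tested, and above every shRNA2 library for all 10, seen in 36.0%. For 7 of the 10 genes the 3 groups formed separate steps, with every nt-shRNA library above every shRNA1 library and these above every shRNA2 library, compared with 12.7% of all genes. The other 3 were *Pgam1*, *Eno2* and *Pkm*, whose shRNA1 and shRNA2 libraries overlapped. The median position of the 10 genes against the nt-shRNA mean was -0.67, -0.80 and -0.48 on the log2 scale in shRNA1 replicates 1 to 3 and -1.04, -0.99 and -0.95 in shRNA2 replicates 1 to 3. The shRNA1 libraries were thus more spread than the shRNA2 libraries, with shRNA1 replicate 3 nearest to the controls.

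**Figure D1:**
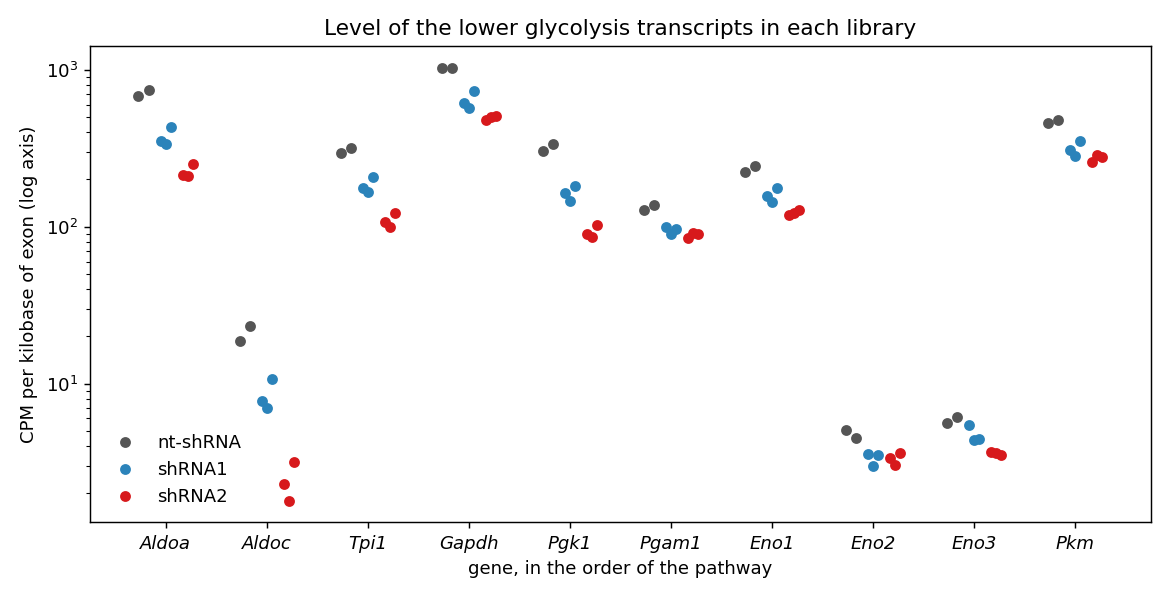
Level of each gene in each of the 8 libraries, in CPM per kilobase of exon on a log axis, in the order of the pathway; each point is a library. Grey control points lie above the blue shRNA1 and red shRNA2 points for all 10 genes, and Aldoc has the widest separation.

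Levels were put in order per kilobase of exon, which is a rough scale because transcripts of a gene differ in length. Parts that some members, such as *Pgk1* and *Eno1*, share with copies (described further on) also make the order uncertain. With nt-shRNA, *Gapdh* stood highest at 1032 CPM per kilobase, followed by *Aldoa* at 716, *Pkm* at 468, *Pgk1* at 319, *Tpi1* at 306, *Eno1* at 234 and *Pgam1* at 132. The minor isoenzymes came far below, with *Aldoc* at 21.02, *Eno3* at 5.87 and *Eno2* at 4.77 CPM per kilobase. Both control libraries gave this order. Only the ranges of *Pgk1* and *Tpi1*, 302 to 335 and 297 to 315, overlapped between libraries, and *Pgk1* stood above *Tpi1* in each.

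The order was not the same with shRNA2. *Pkm* at 274 ± 14.7 CPM per kilobase (SD, n = 3) then stood above *Aldoa* at 225 ± 23.3, and their libraries did not overlap. *Pgk1*, which stood above *Eno1* in both controls, was at 93.2 ± 9.02 and lay below *Eno1* at 123 ± 4.03 without overlap, while it overlapped *Pgam1* at 88.8 ± 3.99. *Eno1* also stood above *Tpi1* at 110 ± 12.03 in each shRNA2 library, although their ranges overlapped between libraries. *Aldoc*, at 2.42 ± 0.684, had moved to the bottom of the list, below *Eno3* at 3.58 ± 0.0916 and *Eno2* at 3.34 ± 0.306. *Aldoc* lay below both in each shRNA2 library, although its range overlapped that of *Eno2* between libraries.

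In the control libraries the 10 genes together took 1.08% and 1.17% of all counts. They took 0.722%, 0.674% and 0.839% with shRNA1 and 0.527%, 0.544% and 0.577% with shRNA2, so the 3 groups did not overlap. *Gapdh* alone accounted for 0.404% ± 0.00822 (SD, n = 2), 0.270% ± 0.0335 (SD, n = 3) and 0.206% ± 0.00645 (SD, n = 3) of the counts with nt-shRNA, shRNA1 and shRNA2.

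**Figure D2:**
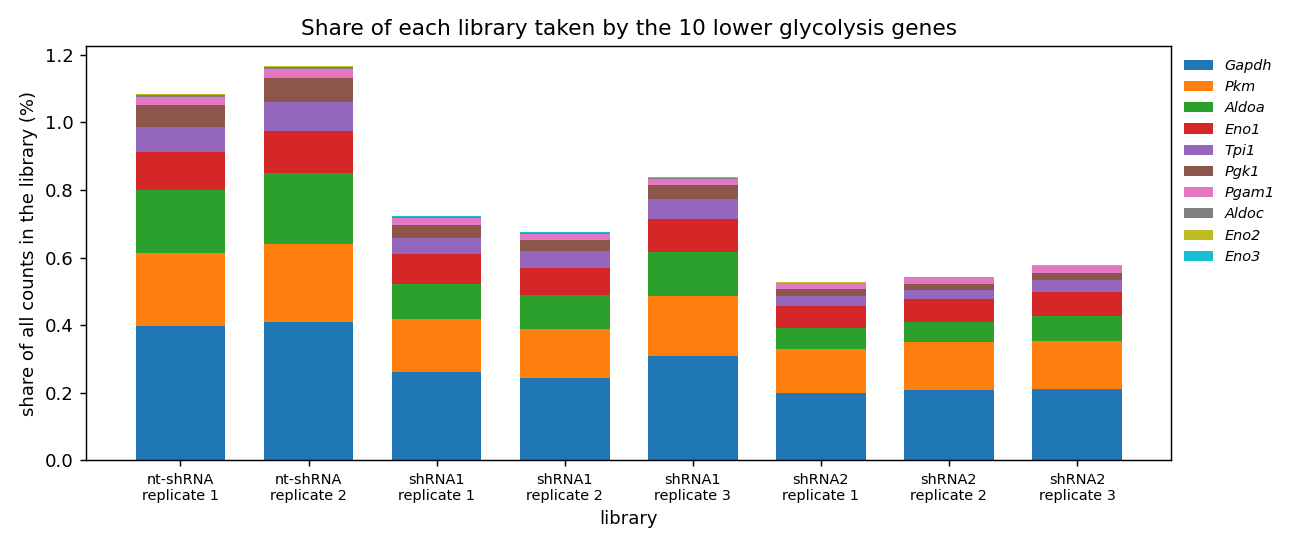
Share of all counts in each library taken by the 10 genes, in percent, as stacked bars that start at 0, with a color for each gene. The bars reach 1.08% and 1.17% in the controls and between 0.527% and 0.577% with shRNA2, and Gapdh is the largest block in each.

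**Figure D3:**
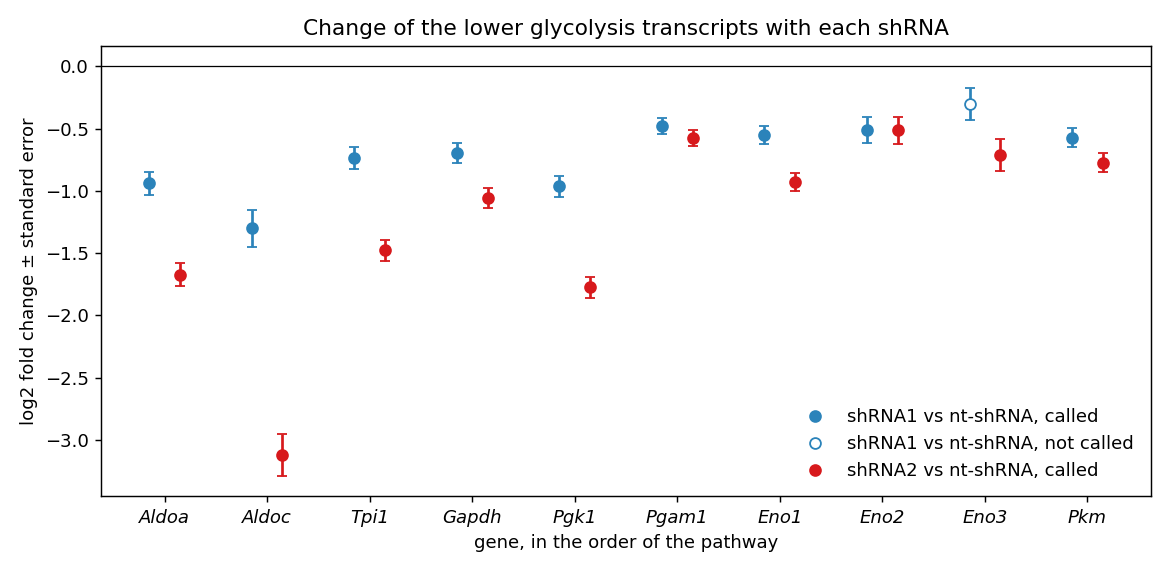
Log2 fold change of each gene against nt-shRNA with its standard error, in the order of the pathway, for shRNA1 in blue and shRNA2 in red; filled points passed an adjusted p of 0.05. All points lie below 0, from -0.30 for Eno3 with shRNA1 to -3.12 for Aldoc with shRNA2.

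Stretches of 250 bases before a start site are shown for 4 members, since HIF-1 is a known regulator of the pathway. Stretches with its core motif and no annotated exon were found for 6 members, and those of *Eno1* and *Eno3*, with 1 match each, are not printed. They were read from RefSeq (GRCm38.p6), on the strand of the gene, and capitals mark ACGTG or GCGTG on either strand. *Pgk1* and *Aldoa* were among the members with the largest changes, *Gapdh* had the highest level, and *Pgam1* had one of the smallest changes with shRNA2. How matches relate to the size of a change was not tested.
Aldoa, chr7:126799255-126799504, minus strand: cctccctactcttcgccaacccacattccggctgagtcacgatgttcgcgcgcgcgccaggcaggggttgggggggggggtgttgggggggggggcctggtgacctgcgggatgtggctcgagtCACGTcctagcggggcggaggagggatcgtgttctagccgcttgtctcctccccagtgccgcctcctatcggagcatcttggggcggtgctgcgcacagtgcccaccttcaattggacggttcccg
Gapdh, chr6:125165774-125166023, minus strand: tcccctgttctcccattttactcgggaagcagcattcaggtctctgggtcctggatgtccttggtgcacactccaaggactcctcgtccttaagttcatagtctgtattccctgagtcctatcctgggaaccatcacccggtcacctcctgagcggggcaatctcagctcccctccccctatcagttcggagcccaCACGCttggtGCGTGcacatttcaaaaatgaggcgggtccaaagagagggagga
Pgk1, chrX:106186850-106187099, plus strand: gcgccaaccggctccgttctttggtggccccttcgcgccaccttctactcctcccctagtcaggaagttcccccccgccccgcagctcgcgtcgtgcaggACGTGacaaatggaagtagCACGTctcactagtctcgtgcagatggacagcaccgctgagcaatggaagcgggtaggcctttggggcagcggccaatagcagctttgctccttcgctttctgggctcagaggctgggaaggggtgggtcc
Pgam1, chr19:41911621-41911870, plus strand: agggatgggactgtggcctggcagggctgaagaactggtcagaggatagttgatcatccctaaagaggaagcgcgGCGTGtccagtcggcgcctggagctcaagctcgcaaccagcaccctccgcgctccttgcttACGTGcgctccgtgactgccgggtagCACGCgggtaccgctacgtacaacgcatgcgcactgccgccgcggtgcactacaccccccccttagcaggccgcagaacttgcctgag

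The stretch of *Aldoa* is one of 3 for this gene. Another overlaps it and holds the same match, and the third holds 0. The stretches held 1 match for *Aldoa*, 2 for *Gapdh*, 2 for *Pgk1* and 3 for *Pgam1*. Over the 16 RefSeq start sites of the 10 genes, ACGTG or GCGTG on either strand was present before at least 1 start site of 8 genes, all but *Tpi1* and *Eno2*, compared with 41.5% of 27025 genes and 38.6% of 32851 stretches. ACGTG was present for 4 members and 18.5% of genes, and GCGTG for 5 members and 30.8% of genes, with *Pgam1* in both counts. The E-box CACGTG, which contains ACGTG, was present for 0 of the 10 members and 6.86% of genes. The other letters searched, also on both strands, were GGGCGG (6 members, 35.4% of genes), CCAAT (5 members, 37.5% of genes) and TATAAA (*Eno2* alone among members, 14.3% of genes). A match describes the letters in the stretch only, and the genes differ in their number of start sites.

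*Aldoa* (ENSMUSG00000030695, chr7:126795234-126800751 in GRCm38, minus strand) encodes the main aldolase. It was at 1996 and 2174 CPM with nt-shRNA, at 1028, 973 and 1259 CPM with shRNA1 and at 618, 613 and 733 CPM with shRNA2. The groups formed 3 separate steps. With shRNA1 it fell to 52.1% of the control level (log2 fold change -0.94, SE 0.0923, adjusted p = 5.85e-07) and to 31.4% with shRNA2 (-1.67, SE 0.0926, adjusted p = 9.02e-11), and it was lower with shRNA2 than with shRNA1 by 0.73 on the log2 scale (SE 0.0844, adjusted p = 5.05e-06). A separate locus that the annotation also names *Aldoa* had only 26 to 68 counts per library and was kept apart. In edgeR this locus was called lower with shRNA1 (-0.61, SE 0.216, adjusted p = 0.0392) but not with shRNA2 (-0.19, SE 0.21, adjusted p = 0.471). Its direct difference was 0.42 (SE 0.207, adjusted p = 0.12), so it did not follow the steps of the main locus.

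*Aldoc* (ENSMUSG00000017390, chr11:78322968-78327781, plus strand), the aldolase known from brain, showed the largest decrease of the 10 genes in all 3 comparisons. It was at 61.2 and 76.0 CPM with nt-shRNA, at 25.4, 22.9 and 34.7 CPM with shRNA1 and at 7.53, 5.86 and 10.3 CPM with shRNA2. No groups overlapped. The level fell to 40.6% of the control level with shRNA1 (log2 fold change -1.30, SE 0.148, adjusted p = 3.16e-06) and to 11.5% with shRNA2 (-3.12, SE 0.167, adjusted p = 6.96e-11), where it ranked 32 among the 17445 genes, counted from the lowest fold change. Between hairpins the log2 fold change was -1.82 (SE 0.164, adjusted p = 8.22e-07).

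Within the aldolases the minor form took a smaller share in the knockdown libraries. Per kilobase, *Aldoc* made up 2.66% and 3.02% of the aldolase level with nt-shRNA, 2.20% ± 0.176 (SD, n = 3) with shRNA1 and 1.05% ± 0.196 (SD, n = 3) with shRNA2. The log2 ratio of *Aldoc* to *Aldoa* was lower by 0.38 with shRNA1 and by 1.47 with shRNA2 than with nt-shRNA, and lower by 1.09 with shRNA2 than with shRNA1. In each of these the libraries did not overlap, and each had p = 0.1 (exact two-sided permutation test; 0.171 after adjustment over the 12 ratio tests), which is the smallest p these group sizes allow.

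*Tpi1* (ENSMUSG00000023456, chr6:124810586-124814296, minus strand) encodes triose phosphate isomerase, for which the list holds a single gene. It was at 817 and 868 CPM with nt-shRNA, at 486, 459 and 574 CPM with shRNA1 and at 295, 273 and 338 CPM with shRNA2. The steps did not overlap. Relative to the controls, *Tpi1* fell to 60.2% with shRNA1 (log2 fold change -0.73, SE 0.0871, adjusted p = 5e-06) and to 35.9% with shRNA2 (-1.48, SE 0.0874, adjusted p = 1.75e-10), and the direct comparison gave -0.75 (SE 0.08, adjusted p = 2.52e-06).

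*Gapdh* (ENSMUSG00000057666, chr6:125161715-125166467, minus strand) encodes the dehydrogenase that oxidizes glyceraldehyde-3-phosphate and is widely used as a reference gene. It was at 4265 and 4269 CPM with nt-shRNA, at 2547, 2344 and 3014 CPM with shRNA1 and at 1973, 2076 and 2093 CPM with shRNA2. All shRNA1 libraries lay between the controls and the shRNA2 libraries. *Gapdh* fell to 61.8% of the control level with shRNA1 (log2 fold change -0.70, SE 0.0794, adjusted p = 3.31e-06) and to 47.98% with shRNA2 (-1.06, SE 0.0793, adjusted p = 2.76e-09), with -0.36 between hairpins (SE 0.072, adjusted p = 0.000733). Of 10 other genes commonly used as references, 3 were called lower and 0 higher with shRNA1, and 4 lower and 1 higher with shRNA2, beside 17.1% and 13.8% of all genes with shRNA1 and 28.7% and 27.2% with shRNA2. Their log2 fold changes ran from -0.34 to 0.08 and from -0.58 to 0.33, so none reached the change of *Gapdh* in either comparison.

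*Gapdhs*, the sperm form of the dehydrogenase, stayed at 16 to 32 counts per library and passed the test in no comparison. Its share of the dehydrogenase level per kilobase was at most 0.124%.

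*Pgk1* (ENSMUSG00000062070, chrX:106187100-106203699, plus strand) encodes the phosphoglycerate kinase of somatic cells. It was at 678 and 753 CPM with nt-shRNA, at 369, 325 and 408 CPM with shRNA1 and at 203, 192 and 232 CPM with shRNA2. Among the 10 genes only *Aldoc* fell further. The level fell to 51.35% of the control level with shRNA1 (log2 fold change -0.96, SE 0.085, adjusted p = 1.95e-07) and to 29.2% with shRNA2 (-1.78, SE 0.0857, adjusted p = 3.6e-11), and shRNA2 was below shRNA1 by 0.81 on the log2 scale (SE 0.0786, adjusted p = 1.13e-06). *Pgk2*, the testis form, had at most 0.0316% of the phosphoglycerate kinase level in any library.

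*Pgam1* (ENSMUSG00000011752, chr19:41911923-41918660, plus strand), the phosphoglycerate mutase of most tissues, had the smallest decrease of the 9 genes called with shRNA1. It was at 253 and 271 CPM with nt-shRNA, at 196, 177 and 192 CPM with shRNA1 and at 167, 182 and 179 CPM with shRNA2. The knockdown groups overlapped each other and neither overlapped the controls. It fell to 71.9% of the control level with shRNA1 (log2 fold change -0.48, SE 0.0635, adjusted p = 1.82e-05) and to 67.1% with shRNA2 (-0.57, SE 0.0635, adjusted p = 3.71e-07). The direct difference was -0.10 (95% confidence interval -0.21 to 0.015, adjusted p = 0.197).

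*Pgam2*, the muscle form of the mutase, was at 3.38 to 6.20 CPM across the libraries. Its log2 fold change was -0.06 with shRNA1 (SE 0.162, adjusted p = 0.803), and it fell to 64.2% of the control level with shRNA2 (-0.64, SE 0.17, adjusted p = 0.00349). *Bpgm*, which makes the side product 2,3-bisphosphoglycerate, went the other way: it rose to 131.3% of the control level with shRNA2 (0.39, SE 0.0922, adjusted p = 0.00131) and was at 0.14 with shRNA1 (SE 0.0925, adjusted p = 0.263).

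*Eno1* (ENSMUSG00000063524, chr4:150236721-150248879, plus strand) encodes the main enolase. It was at 1206 and 1307 CPM with nt-shRNA, at 849, 776 and 951 CPM with shRNA1 and at 641, 658 and 684 CPM with shRNA2. The 3 groups were separate. It fell to 68.35% of the control level with shRNA1 (log2 fold change -0.55, SE 0.0736, adjusted p = 1.92e-05) and to 52.6% with shRNA2 (-0.93, SE 0.0734, adjusted p = 5.61e-09), with -0.38 between hairpins (SE 0.0667, adjusted p = 0.000277).

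*Eno2* (ENSMUSG00000004267, chr6:124760053-124769673, minus strand), the enolase known from neurons, had a mean of 15.7 CPM with either hairpin. It was at 23.8 and 21.04 CPM with nt-shRNA, at 16.6, 14.1 and 16.4 CPM with shRNA1 and at 15.8, 14.2 and 17.1 CPM with shRNA2. Both knockdown groups lay below the controls and covered nearly the same range. The level fell to 70.2% of the control level with shRNA1 (log2 fold change -0.51, SE 0.107, adjusted p = 0.00126) and to 70.03% with shRNA2 (-0.51, SE 0.107, adjusted p = 0.000459). The direct difference was -0.00 (95% confidence interval -0.20 to 0.19, adjusted p = 0.979).

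*Eno3* (ENSMUSG00000060600, chr11:70657202-70662513, plus strand), the enolase known from muscle, had the lowest CPM of the 10 genes in the controls. It was at 9.78 and 10.6 CPM with nt-shRNA, at 9.52, 7.65 and 7.74 CPM with shRNA1 and at 6.37, 6.27 and 6.06 CPM with shRNA2. In shRNA1 replicate 1 it was just below the lower control. With shRNA1 the log2 fold change was -0.30 (SE 0.128, 95% confidence interval -0.55 to -0.05) and did not pass after adjustment (adjusted p = 0.0836). Without shRNA1 replicate 1 it was -0.41 (adjusted p = 0.0387), with library size alone as the scale it was -0.19 (adjusted p = 0.284), and over all alternatives the adjusted p ran from 0.0387 to 0.34. With shRNA2 the level fell to 61.1% of the control level (-0.71, SE 0.132, adjusted p = 0.000151). Between hairpins it was -0.41 (SE 0.124, adjusted p = 0.0146), and -0.30 (adjusted p = 0.0882) without shRNA1 replicate 1.

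The makeup of the enolase transcripts was computed in the same way over *Eno1*, *Eno2*, *Eno3* and *Eno4*, without the copy *Eno1b* that is described further on. Per kilobase, *Eno2* made up 1.957% ± 0.275 (SD, n = 2) of the enolase level with nt-shRNA, 1.99% ± 0.118 (SD, n = 3) with shRNA1 and 2.56% ± 0.198 (SD, n = 3) with shRNA2. The log2 ratio of *Eno2* to *Eno1* was higher with shRNA2 than with nt-shRNA by 0.41 and than with shRNA1 by 0.37, without overlap (exact two-sided permutation p = 0.1 each, the smallest possible; 0.171 adjusted), and differed by 0.04 between shRNA1 and nt-shRNA (exact p = 0.9). The difference with shRNA2 was 0.26 without nt-shRNA replicate 2 and 0.56 without nt-shRNA replicate 1, and that with shRNA1 was -0.11 and 0.19. *Eno3* made up 2.40% ± 0.0114 (SD, n = 2), 2.86% ± 0.437 (SD, n = 3) and 2.75% ± 0.153 (SD, n = 3), and its log2 ratio to *Eno1* differed from the controls by 0.25 with shRNA1 and by 0.22 with shRNA2 (exact permutation p = 0.2 each). The former was 0.14 without shRNA1 replicate 1 and 0.37 without shRNA1 replicate 3. *Eno4*, known from testis, was at 12 to 40 counts per library. It rose with shRNA2 (log2 fold change 1.48, SE 0.311, adjusted p = 0.000514) and was at 0.74 with shRNA1 (SE 0.334, adjusted p = 0.101), and its share of the enolase level reached at most 0.571%.

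**Figure D4:**
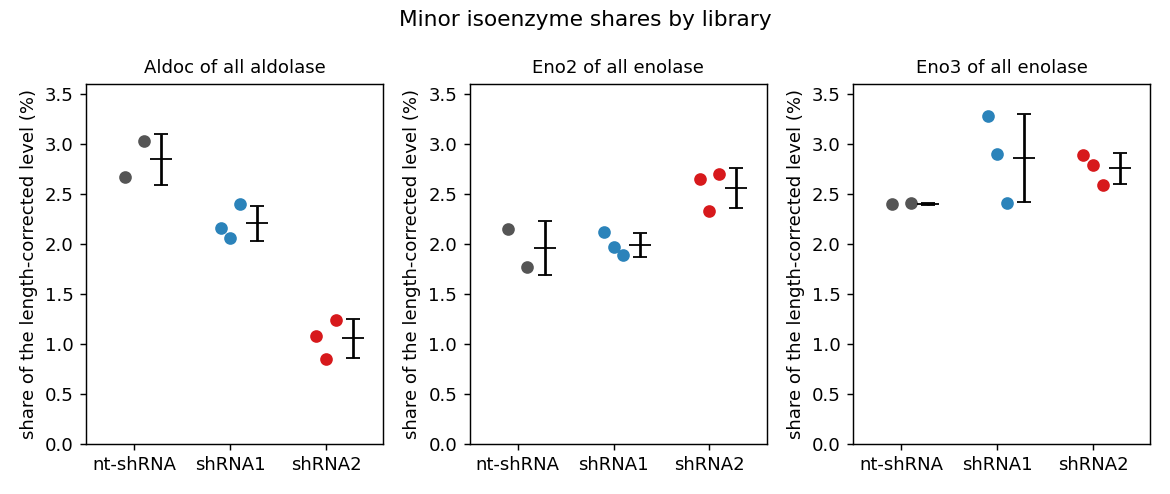
Share of the level per kilobase of exon, in percent, of Aldoc among the aldolases and of Eno2 and Eno3 among the enolases, with a point for each library and the mean with its SD beside them. Aldoc goes down in steps from 2.84% to 2.20% and 1.05%, and Eno2 is higher with shRNA2 (2.56%) than in the other groups.

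*Pkm* (ENSMUSG00000032294, chr9:59656368-59679375, plus strand) encodes the muscle pyruvate kinase and its splice form of proliferating cells, which gene counts do not separate. It was at 2282 and 2400 CPM with nt-shRNA, at 1541, 1415 and 1765 CPM with shRNA1 and at 1285, 1423 and 1399 CPM with shRNA2. The knockdown groups overlapped. The level fell to 67.2% of the control level with shRNA1 (log2 fold change -0.57, SE 0.0775, adjusted p = 2.06e-05) and to 58.5% with shRNA2 (-0.77, SE 0.0774, adjusted p = 1.05e-07). The direct difference was -0.20 (SE 0.0701, adjusted p = 0.0313), and it did not pass without shRNA1 replicate 1 (-0.22, adjusted p = 0.0547), without shRNA1 replicate 3 (-0.11, adjusted p = 0.168) or without shRNA2 replicate 1 (-0.16, adjusted p = 0.161). *Pklr*, the pyruvate kinase of liver and red cells, was at 0.812 to 2.09 CPM. It fell with shRNA2 (-0.88, SE 0.305, adjusted p = 0.0199) and held between 0.0814% and 0.165% of the pyruvate kinase level.

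Counts of some members rest on part of the transcript only, since the authors left out fragments that align to several places and several members have close copies. Of all 100-base windows of the annotated transcripts, 51.7% of those of *Pgk1* were also present in other annotated genes, as were 33.9% for *Pgam1*, 20.9% for *Gapdh*, 20.4% for *Eno1*, 12.3% for *Pkm* and 0.422% for *Tpi1*. No window of *Aldoa*, *Aldoc*, *Eno2* or *Eno3* was shared. Levels of the members with shared windows, and their order per kilobase, are therefore uncertain. The fold changes of these members may include fragments of copies. *Pkm* also shares 15.3% of its exon bases with *Gm49759* on the same strand, and the overlap was at most 1.64% for the other members.

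*Eno1b*, an annotated copy of *Eno1*, was counted at 223 and 236 CPM with nt-shRNA, at 153, 138 and 170 CPM with shRNA1 and at 112, 112 and 120 CPM with shRNA2. Its log2 fold changes were -0.58 (SE 0.0734, adjusted p = 1.08e-05) and -0.9993 (SE 0.0737, adjusted p = 2.36e-09). Its log2 ratio to *Eno1* differed from the controls by -0.03 with shRNA1 (exact permutation p = 0.2) and by -0.07 with shRNA2 (exact permutation p = 0.1). Counted as an enolase, *Eno1b* took 33.4% of the level per kilobase with nt-shRNA, 32.75% with shRNA1 and 31.9% with shRNA2. The share of *Eno2* was then 1.30%, 1.34% and 1.74%, and that of *Eno3* was 1.6%, 1.92% and 1.87%. Of 8 listed copies, 7 were in the table and 3 passed the filter. *Pgk1-rs7*, a copy of *Pgk1* with 3 to 37 counts per library, was called lower with both hairpins (-1.44, SE 0.4, adjusted p = 0.01, and -2.21, SE 0.453, adjusted p = 0.000386). *Pgam1-ps2* passed in neither comparison (-0.01, adjusted p = 0.985, and -0.40, adjusted p = 0.269).

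*Eno2*, *Tpi1* and *Gapdh* lie on the same strand within 406.4 kb of chromosome 6 (chr6:124760053-125166467), which holds 31 annotated genes. Of these, 27 were tested, 24 of them not members. With shRNA1, 3 of the 24 neighbors were called lower and 1 higher, or 12.5% lower, and with shRNA2 7 were lower and 5 higher, or 29.2% lower. These shares of lower calls stood near the backgrounds of 17.1% and 28.7%, and 13.8% and 27.2% of all genes were called higher. The median log2 fold changes of the neighbors were -0.10 and 0.05. *Tpi1* (-0.73 and -1.48) and *Gapdh* (-0.70 and -1.06) were lower than every tested neighbor but *Acrbp*, which encodes a proacrosin-binding protein. In edgeR *Acrbp* was at -0.82 (SE 0.148, adjusted p = 0.000374) with shRNA1, below both, and at -1.17 (SE 0.153, adjusted p = 3.05e-06) with shRNA2, below *Gapdh* only. *Eno2* fell less, at -0.51 with each hairpin. Among the neighbors, *Acrbp* alone was below *Eno2* with shRNA1. With shRNA2, *Acrbp*, *Gnb3* (-0.96) and *Lag3* (-0.72) were below it, all called lower.

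**Figure D5:**
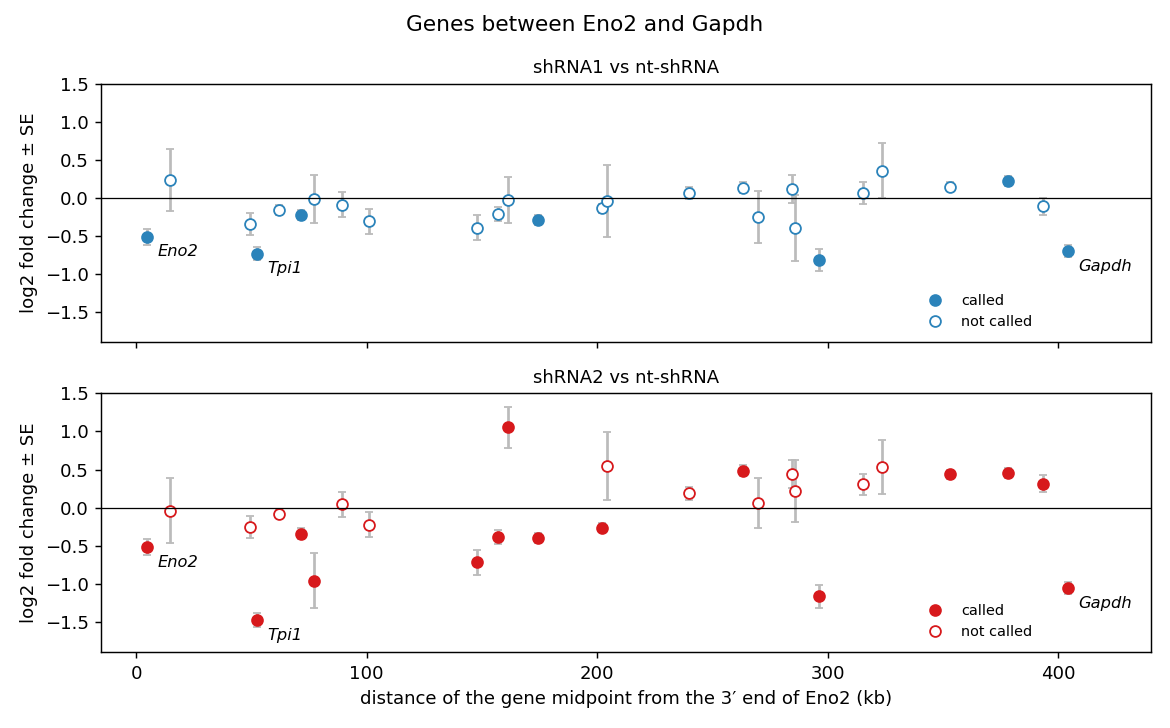
Log2 fold change with its standard error of the 27 tested genes between Eno2 and Gapdh, against the distance of the gene's midpoint from the 3′ end of Eno2 in kilobases, with shRNA1 above and shRNA2 below; filled points passed an adjusted p of 0.05. Tpi1 and Gapdh lie below most of the neighbors, whose medians are -0.10 and 0.05.

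Genes of the steps before aldolase, of glucose uptake and of lactate metabolism were counted beside the members, from a list of 12 of which 11 were tested. With shRNA1, 10 of the 11 fell and 1 did not pass, and with shRNA2 all 11 fell, beside 17.1% and 28.7% of all genes called lower. Their median log2 fold changes were -0.71 and -1.27. The phosphofructokinase gene *Pfkp* had the lowest value with shRNA2 (-1.85, SE 0.0932, adjusted p = 3.6e-11) and *Slc2a3*, a glucose transporter, the highest (-0.24, SE 0.0611, adjusted p = 0.00221). In the direct comparison 9 of 11 were lower with shRNA2, with a median of -0.56, beside 18.7% of all genes.

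The genes with the profile nearest to the median profile of the 10 members were named by the root-mean-square difference of centered log2 CPM over the 8 libraries, among 9576 candidates. They were *Eno1b* (0.0289), *Akip1* (0.0407), *Nthl1* (0.0427), *Pltp* (0.0451) and *Bsg* (0.0458). *Eno1b* is the copy of the member *Eno1* described above, whose fragments may enter the count of *Eno1b*, which was not tested. *Bsg* encodes basigin, a chaperone of lactate transporters, *Nthl1* a DNA glycosylase and *Pltp* a phospholipid transfer protein. Among the members themselves *Eno1* (0.0353) and *Gapdh* (0.0474) were nearest to that profile, to which they contribute, and *Aldoc* (0.904) was the farthest.

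Markers of other cell types were read in the same libraries, since *Eno2* and *Aldoc* are known from neurons and brain and *Eno3* from muscle. Their calls stand beside backgrounds of 13.8% higher and 17.1% lower with shRNA1, 27.2% and 28.7% with shRNA2, and 16.9% and 18.7% in shRNA2 against shRNA1. The 8 neuron markers summed to 28.3 to 32.5 CPM with nt-shRNA, 43.1 to 46.0 CPM with shRNA1 and 54.5 to 72.2 CPM with shRNA2. Of the 5 that were tested, 4 were called higher and none lower with shRNA1, and 2 higher and none lower with shRNA2 (*Tubb3* at 1.58 and *Nefl* at 0.74 on the log2 scale). In shRNA2 against shRNA1, *Tubb3* (0.96) and *Nefl* (0.31) were higher and *Map2* (-0.47) and *Elavl3* (-0.61) lower. *Tubb3* rose from 15.6 to 30.5 CPM between these groups, and *Dcx* and *Snap25* had at most 2 counts in any library. The 8 muscle markers summed to 73.9 to 74.3, 67.1 to 80.1 and 54.2 to 59.4 CPM. Among the 4 tested, *Des* fell with both hairpins (-0.29 and -0.58), and *Actn2* rose with shRNA1 (0.57, adjusted p = 0.00114) and was at 0.03 with shRNA2 (adjusted p = 0.873). The 8 fibroblast markers summed to 21.3 to 23.1, 22.3 to 25.0 and 15.4 to 19.3 CPM. Of the 4 tested, *Pdgfrb* fell with shRNA2 (-0.74, from 17.4 to 10.4 CPM), and *Col1a2* rose with both hairpins (1.27 and 1.66), from 0.429 CPM to 1.055 and 1.38 CPM. The 6 endoderm markers summed to 24.4 to 24.7, 23.1 to 27.3 and 18.5 to 20.6 CPM, and of the 5 tested none was called with shRNA1 and *Gata6* alone was lower with shRNA2 (-0.75). With shRNA2, *Actn2* (-0.54), *Des* (-0.29), *Pdgfrb* (-0.67), *Sox17* (-0.87), *Gata4* (-0.32) and *Gata6* (-0.47) were lower than with shRNA1. No tested marker of muscle, fibroblasts or endoderm was called higher in that comparison. The part of these cell types in the changes of the isoenzymes was not tested.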

How the data were processed

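RNA-seq of R1 mESCs comprised 8 libraries in 3 groups. According to the submitters' methods, 100 bp paired-end reads were aligned with STAR, and the authors deposited raw counts of fragments per gene from featureCounts 1.6.2 (GRCm38, GENCODE M24), without normalization or strand and without fragments that align to several places. Such counting makes copies, overlapping genes and antisense genes uncertain. Columns were matched to samples by name, and 0 per-sample columns were left unmapped. Identifiers were matched to symbols of GENCODE M21 for 55144 of 55385 genes. Of the loci named *Aldoa*, the one overlapping the RefSeq gene was used.

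The members and lists were chosen with earlier results of these data known. All 10 members are named, genes of other lists are named where a statement rests on them, and the 5 genes nearest to the median member profile are named among genes with a mean of at least 10 CPM. *Acrbp*, *Gnb3* and *Lag3* were singled out after their values were seen.

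Counts were tested in R 4.3.3 with edgeR 4.0.16 (filterByExpr with a minimum count of 10, TMM, glmQLFit and glmQLFTest, a coefficient per group over all 8 libraries). Benjamini-Hochberg adjusted p-values under 0.05 over 17445 genes were called. Fold changes are fitted, and CPM values are TMM-normalized. The biological coefficient of variation was 0.0638. Ratios of isoenzymes used counts plus 0.5, divided by exon length, and exact permutation tests (scipy 1.17.1). The edgeR code was first run on simulated counts with known changes in shRNA2 and a single spread for all genes. Only shRNA2 against nt-shRNA was checked there, not the other comparisons, the ratios or the shares. Total counts of 19569525 to 29871048 set the precision, and counting floors cover counting error only.

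Alternatives were other scalings in edgeR (DESeq2 size factors, or library size without TMM), the Wald test of DESeq2 1.42.0, other filters (none, or 10 counts in each of the libraries), fits of the compared groups alone, the replicate number as a block, leaving out each library, shares from raw counts, and a pseudocount of 2. Promoter stretches came from RefSeq (GRCm38.p6). Splicing was not analysed here. Some genes of the lists that are counted are not reported here by name.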

Additional observations from a re-analysis of the deposited data

How the results depend on the processing

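Of 450 tests of a member under an alternative, 441 kept the direction and the side of the threshold. Of the others, 5 were the left-out libraries given above for *Eno3* and *Pkm*, and 4 were the direct difference of *Eno2*, never called, which changed sign: it was 0.0001 with the replicate block and lay between -0.0728 and 0.064 when libraries were left out. Leaving out libraries also changed the sign of the log2 ratio of *Eno2* to *Eno1* in shRNA1 against nt-shRNA (-0.1082 to 0.1852) and of *Eno3* to *Eno1* in shRNA2 against shRNA1 (-0.1551 to 0.0767). Members called lower numbered 9 or 10, 10, and 6 to 8 in the 3 comparisons. With library size alone, the median of the members was -0.90 with shRNA2 and -0.42 between hairpins, the median of all genes with shRNA1 moved to 0.11, and the share of calls that were higher went from 44.7% to 70.5% with shRNA1 and from 48.7% to 58.9% with shRNA2. Without a filter the direct median was -0.41. Leaving out libraries gave direct medians from -0.45 to -0.38 and between 2948 and 5903 genes called with shRNA1, against 5388, the lowest without nt-shRNA replicate 1. The cause was not tested.

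Same-numbered libraries of different groups had deviations from their group means that correlated at -0.026 to 0.074 over genes. Differently numbered libraries correlated at -0.083 to 0.028. The same-numbered pairs of shRNA1 and shRNA2 were all positive (0.022, 0.057 and 0.074). All these values were small, and the main fit did not take the numbers as pairs, although they do not exclude a pairing. In the fit that blocked on replicate number, the members' median with shRNA2 was -1.05, the genes called numbered 6018, 10034 and 6518, and no member's call changed.

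Per-kilobase shares depend on the lengths used. From raw counts, *Aldoc* made up 3.18%, 2.46% and 1.18% of aldolase counts, and *Eno3* 0.791%, 0.946% and 0.912% of enolase counts, with nt-shRNA, shRNA1 and shRNA2. With 2 control libraries, each control weighs heavily, and exact tests of a ratio cannot fall below p = 0.1. The lowest counts of a member, 130 for *Aldoc* and 132 for *Eno3* in an shRNA2 library, limit the precision of these genes.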

Other observations

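Gluconeogenesis uses the reversible enzymes of lower glycolysis in the opposite direction and has its own enzymes for the remaining steps. Of 8 genes of these own steps, 6 were tested. With shRNA1, 4 fell and none rose, and with shRNA2 the count was 4 lower and 1 higher. Of all genes tested, 17.1% were called lower and 13.8% higher with shRNA1, and 28.7% and 27.2% with shRNA2. *Pck2*, the mitochondrial phosphoenolpyruvate carboxykinase, was at 82.5 CPM with nt-shRNA, 45.9 CPM with shRNA1 and 30.2 CPM with shRNA2 (log2 fold changes -0.84, SE 0.113, adjusted p = 1.98e-05, and -1.45, SE 0.116, adjusted p = 6.21e-09). *G6pc3*, a glucose-6-phosphatase subunit, fell by 0.53 and by 1.18 on the log2 scale (adjusted p = 0.000545 and 2.32e-08). *Fbp2*, the muscle fructose bisphosphatase, rose with shRNA2 (0.82, SE 0.298, adjusted p = 0.0253), from 0.932 to 1.63 CPM, and was at 0.49 with shRNA1 (adjusted p = 0.236).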
